A study of Mus musculus with 36 samples.

Results

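Expression of 10 antioxidant defence genes was followed in mouse liver from the last days of gestation to adulthood: the superoxide dismutases Sod1 and Sod2, catalase (Cat), the glutathione peroxidases Gpx1 and Gpx4, peroxiredoxin 1 (Prdx1), thioredoxin reductase 1 (Txnrd1), both subunits of glutamate-cysteine ligase (Gclc and Gclm) and the quinone reductase Nqo1. They were taken by symbol from the 21889 gene symbols measured, and all 10 passed a filter that kept 11149 genes, those whose mean reached 1 FPKM (fragments per kilobase of transcript, scaled to the fragments mapped in the library) at one age or more. RNA-Seq of whole liver was done in 36 untreated male mice of the strain C57BL/6 (C57BL/6J in the study's methods), with 3 mice, drawn at random out of several litters, at each of 12 ages. The earliest age, GD17.5, is fetal, Day 0 was sampled right after birth with no milk yet taken, and Day 1 followed a full day after birth. The other ages were Days 3, 5 and 10, Days 15 and 20, and, after weaning at 21 days, Days 25, 30, 45 and 60. The lungs fill with air between GD17.5 and Day 0, so these ages and Day 1 bracket the change to air breathing.

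Superoxide formed by respiration is converted to hydrogen peroxide by superoxide dismutases, Sod1 mainly in the cytosol and Sod2 in mitochondria. Hydrogen peroxide is then removed by catalase in peroxisomes, by glutathione peroxidases at the expense of glutathione, and by peroxiredoxins, which thioredoxin and thioredoxin reductase keep reduced. Glutathione itself is made from cysteine by glutamate-cysteine ligase, with Gclc as the catalytic and Gclm as the modifier subunit, followed by glutathione synthetase. Many of these genes are known targets of the transcription factor Nrf2 (gene Nfe2l2), which pairs with small Maf proteins at antioxidant response elements, is held back by Keap1 and Cul3, and is opposed at these elements by Bach1. The liver is known for high levels of catalase, glutathione and glutathione peroxidase.

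Gpx1, Gpx4 and Txnrd1 encode selenoproteins, in which an in-frame TGA codon is read as selenocysteine at the catalytic site. The stretch around this codon is shown because it sets these members apart from the other 7, whose annotated reading frames held no in-frame TGA. In the sequences, which run 5′ to 3′ along the coding strand of the GENCODE M1 transcripts, capitals mark the TGA, at codon 47 of Gpx1, codon 129 of the Gpx4 transcript used and codon 498 of the Txnrd1 transcript used.
Gpx1: gtcgcgtctctcTGAggcaccacgatc
Gpx4: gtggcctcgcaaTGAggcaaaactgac
Txnrd1: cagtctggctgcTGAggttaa

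RefSeq promoter windows (build GRCm38.p6, 250 bases before to 50 after each start) were matched for 9 of the 10 genes, all but Gclc. They were searched on both strands for the core of the antioxidant response element, TGACNNNGC, because several members changed together at birth. The core was present in windows of 4 of the 9 genes (Sod1, Prdx1, Txnrd1 and Gclm), against 13.99% of the 27025 genes in the collection and 12.4% of its windows. All 4 matches lay on the strand opposite to the gene, so the printed strand, that of the gene, shows the core in reverse complement, in capitals.
Sod1, chr16:90220696-90220725: gccaaggtggGCGTGGTCAgactcaggcct
Prdx1, chr4:116685456-116685485: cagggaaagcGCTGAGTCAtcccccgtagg
Txnrd1, chr10:82859104-82859133: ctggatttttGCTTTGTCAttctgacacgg
Gclm, chr3:122245413-122245442: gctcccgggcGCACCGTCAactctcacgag
Counted from the start site, the matches began at base -56 in Sod1, -133 in Prdx1, -92 in 1 of the Txnrd1 windows and -134 in Gclm. They describe the letters in these windows and are not measured binding sites. Whether these matches bear on the changes at birth described below was not tested, and sequence outside the windows was not searched. Txnrd1 and Gclm fell from GD17.5 to Day 0. Sod1 and Prdx1 were called only under some alternatives described below, Sod1 as lower and Prdx1 as higher. Gpx1, Cat and Nqo1 fell with no core in their windows, and Gclc fell but had no window.

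Reads were counted on the build NCBI37/mm9, in which the 10 genes lie on 8 chromosomes. Gpx1 (chr9:108241607-108242671) spans the fewest bases of the members and has 847 exonic bases, while Gclc lies on the same chromosome at chr9:77602342-77642292. Gpx4 (chr10:79509911-79519184) and Txnrd1 (chr10:82296696-82360469) share chromosome 10. Sod1 was annotated at chr16:90220987-90226567, Sod2 at chr17:13200705-13210985, Cat at chr2:103294006-103325317, Prdx1 at chr4:116358149-116373427 and Nqo1 at chr8:109912125-109927106. Gclm (chr3:121948475-121972902) was the only member that another annotated gene overlapped, the non-coding RNA Gm17494 on the opposite strand. The library kit does not mark strand, so reads of the pair cannot be told apart.

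All libraries carried the hepatocyte markers Alb, Ttr, Apoa1, Ahsg, Tf and Hnf4a, whose summed level was 11585 to 12915 FPKM at GD17.5 and 76562 to 88540 FPKM at Day 0. Replicates correlated with r of at least 0.971 across genes (median 0.988 over 36 pairs), and no libraries were identical. About 76.4 fragments, in units of 1000000, were estimated behind each library, and the fewest estimated behind a member in a mouse were 180.4, for Nqo1. In 7 mice there was over 1000 FPKM of skeletal muscle or pancreatic markers: replicates 1 and 3 of Day 0, replicate 2 of Day 3, replicate 3 of Day 15, replicate 2 of Day 20 and replicate 1 of Days 45 and 60. Pancreatic markers also differed between ages, with sums of 0.497 to 2.13 FPKM at GD17.5, 443 to 4427 at Day 0 and 138 to 967 at Day 1. The highest sum was 15354 FPKM, in replicate 1 of Day 60. Without these 7 mice Day 0 is represented by 1 mouse, whose spread is then assumed to be that of the other ages. That mouse, replicate 2, still had 443 FPKM of pancreatic markers.

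Across ages the members differed widely in level and in how much they varied. On the FPKM scale, which is per length, Gpx1 was the most abundant member at every age and made up between 60.2% ± 5.84 (SD, n = 3 mice) of the summed FPKM of the 10 genes at Day 10 and 88.2% ± 0.435 at GD17.5. Nqo1 was the least abundant member, with age means between 1.83 FPKM at Day 45 and 6.15 FPKM at GD17.5. The ratio of the highest to the lowest age mean was 11.05 for Gclc and 10.6 for Cat, 4.50 for Gpx1, 3.37 for Nqo1, 3.28 for Gclm and 3.12 for Gpx4. It was 2.58 for Txnrd1, 2.37 for Sod1, 2.36 for Prdx1 and 1.98 for Sod2. Day 0 was the lowest age for Sod1, Sod2, Cat, Txnrd1 and Gclc, whereas GD17.5 was the highest age for Gpx1, Gpx4, Txnrd1, Gclm and Nqo1 and the lowest for Prdx1.

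**Figure D1:**
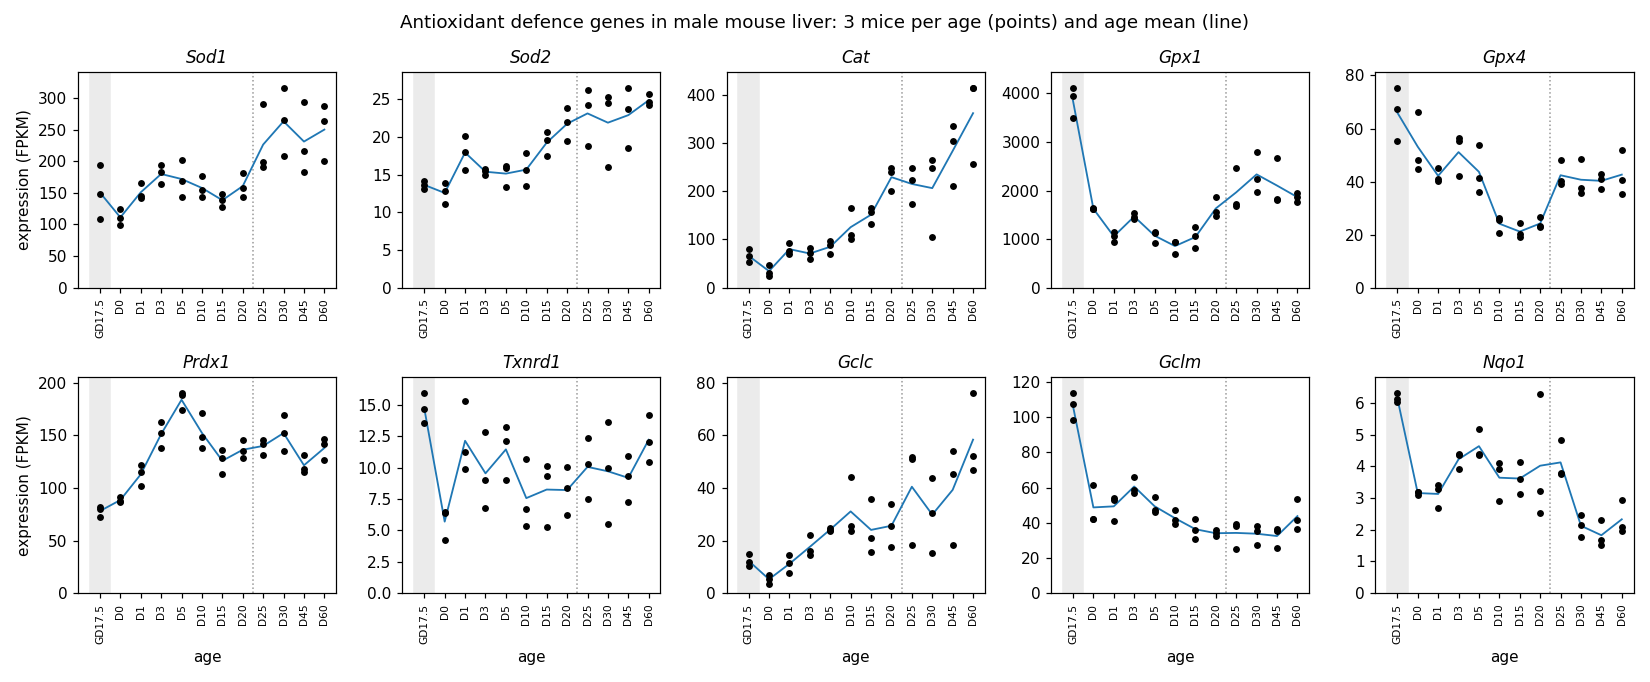
Expression in FPKM (linear axes from 0) of the 10 genes at each age, with 1 point per mouse and a line through the age means; the grey band is GD17.5 and the dotted line marks weaning. Cat and Gclc climb from the lowest point at Day 0 to the highest mean at Day 60, Gpx1 and Gclm are highest at GD17.5, and Prdx1 peaks at Day 5.

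When ages were ordered by mean, most neighbours in the order could not be separated: in 96 of 110 neighbouring pairs the ranges of the mice overlapped. Of the 14 exceptions, 8 lay at an end of the order. Neighbours in such an order lie close by construction, and the same count was not made over all tested genes. The 3 mice of GD17.5 lay above all mice of the next age for Gpx1, Gclm and Nqo1, as did those of Day 5 for Prdx1. The mice of Day 0 lay below all mice of the next lowest age for Sod1, Cat and Gclc, and those of GD17.5 did so for Prdx1.

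The first question was how expression of these genes changed with the first breaths. From GD17.5 to Day 0, a step that by the sample labels also covers the last 2 days before birth, 6 of the 10 genes fell and none rose (limma, Benjamini-Hochberg adjusted p under 0.05 over all 11149 genes, and none was higher at an unadjusted p under 0.05). In the same comparison 41.4% of all tested genes fell and 13.1% rose, or 26% and 20.1% with a common upper quartile, when 5 members were lower and 1 was higher. The median log2 fold change of the members was -0.87, against -0.29 over all tested genes. The 6 were Gpx1, Txnrd1, Gclm, Gclc, Cat and Nqo1.

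Gpx1, the main cytosolic glutathione peroxidase, was measured at 3495, 4116 and 3947 FPKM in the mice of GD17.5 and at 1616, 1620.0 and 1640.4 FPKM in those of Day 0. The groups did not overlap, and the 3 newborns lay close together. The log2 fold change was -1.24 ± 0.17 (SE; adjusted p = 1.02e-06). Txnrd1, which reduces thioredoxin, had 13.5 to 15.9 FPKM before birth and 4.25 to 6.49 FPKM afterwards, without overlap (log2 fold change -1.25 ± 0.28, adjusted p = 0.000455).

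Both subunits of glutamate-cysteine ligase, the rate-limiting enzyme of glutathione synthesis, were lower in every newborn than in any fetus. Gclm was measured at 98.2, 107.3 and 113.5 FPKM at GD17.5 and at 42.1, 42.3 and 61.7 FPKM at Day 0 (log2 fold change -1.13 ± 0.18, adjusted p = 8.35e-06). Gclc was measured at 10.3, 11.7 and 14.8 FPKM at GD17.5 and at 3.56, 5.29 and 7.00 FPKM at Day 0 (log2 fold change -1.10 ± 0.40, adjusted p = 0.0215). Gclm was the more abundant mRNA of the pair at both ages.

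Catalase was measured at 53.2, 65.7 and 79.4 FPKM in fetuses and at 24.8, 31.4 and 46.7 FPKM in newborns, again without overlap (log2 fold change -0.95 ± 0.28, adjusted p = 0.00514). Nqo1, the quinone reductase, was nearly the same in mice of one age, at 6.02 to 6.30 FPKM before birth and 3.08 to 3.20 FPKM after it (log2 fold change -0.78 ± 0.17, adjusted p = 0.000479). Its level is low, so the fold change on the log2(FPKM + 1) scale understates the ratio of its age means, 0.513. Cat and Gclc were no longer called without the 7 mice high in muscle or pancreatic markers (log2 fold changes of -0.47 and -0.72), which left replicate 2 as the only Day 0 mouse, the one with the highest Cat, Gclc and Gclm of the 3. The call of Gclc was also lost with a common upper quartile (-0.84, adjusted p = 0.0597 in limma), without replicate 1 of GD17.5 (-0.97) and without replicate 3 of Day 0 (-0.89).

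The superoxide dismutases and Gpx4, which removes lipid hydroperoxides from membranes, did not pass the test between GD17.5 and Day 0. Sod1 had 109, 148 and 194 FPKM before birth and 99.5, 109.5 and 124 FPKM after it, with overlapping groups (log2 fold change -0.40 ± 0.20, adjusted p = 0.0876). Sod2 had a log2 fold change of -0.11 ± 0.15 and Gpx4 of -0.32 ± 0.17, also with overlapping groups. Prdx1, a cytosolic peroxiredoxin, was the only member with all newborns above all fetuses, at 86.3, 87.9 and 91.1 FPKM against 72.5, 79.6 and 81.7 FPKM, but the difference was small (log2 fold change 0.18 ± 0.11, adjusted p = 0.155).

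In the following day, with breathing and suckling under way, the median change turned from a fall to a rise, in the members as in all tested genes. From Day 0 to Day 1, 4 members rose (Cat, Txnrd1, Sod2 and Prdx1) and 1 fell (Gpx1), against 23.7% of all tested genes higher and 7.88% lower (14.7% and 12.0% with a common upper quartile). The member median was 0.39 on the log2 scale, against 0.19 for all genes. Catalase reached 70.0, 76.5 and 93.5 FPKM at Day 1, above every Day 0 mouse (log2 fold change 1.23, adjusted p = 0.00137). Txnrd1 reached 9.89, 11.3 and 15.3 FPKM (log2 fold change 0.97, adjusted p = 0.00908). Sod2, the mitochondrial dismutase, had 11.05 to 13.9 FPKM at Day 0 and 15.6 to 20.2 FPKM at Day 1 (log2 fold change 0.48, adjusted p = 0.018), and Prdx1 reached 101.9 to 121.4 FPKM (log2 fold change 0.34, adjusted p = 0.0162). None of these groups overlapped.

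Gpx1 went on falling, to 945, 1073 and 1152 FPKM at Day 1 (log2 fold change -0.63, adjusted p = 0.00682). Gclc was again above every Day 0 mouse, at 7.71, 11.4 and 14.3 FPKM, but with a wide error (log2 fold change 0.95 ± 0.40, adjusted p = 0.0678). Gclm and Nqo1 stood at log2 fold changes of 0.03 and -0.01. The count of 4 rising members rested on few mice: it was 1 without replicate 1 of Day 1 and 2 without replicate 3 of Day 0, and 0 without the 7 mice high in muscle or pancreatic markers, when Gpx1 was not called either.

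Over the whole interval, Day 1 against GD17.5, which uses the same mice again, Prdx1 (log2 fold change 0.53, adjusted p = 0.000169) and Sod2 (0.37, adjusted p = 0.0471) were higher. Gpx1 (-1.87), Gclm (-1.10), Nqo1 (-0.80) and Gpx4 (-0.63) were lower, so that counts of 2 and 4 stood against 21.2% and 28.6% of all tested genes. Cat, Txnrd1, Gclc and Sod1 were within 0.28 of their prenatal level on the log2 scale and were not called. The dip of Cat, Txnrd1 and Gclc was thus seen against both neighbouring ages in level, while Gpx1, Gclm and Nqo1 stayed down. The call of Sod2 was lost in 19 of 36 fits that each left out a mouse.

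**Figure D2:**
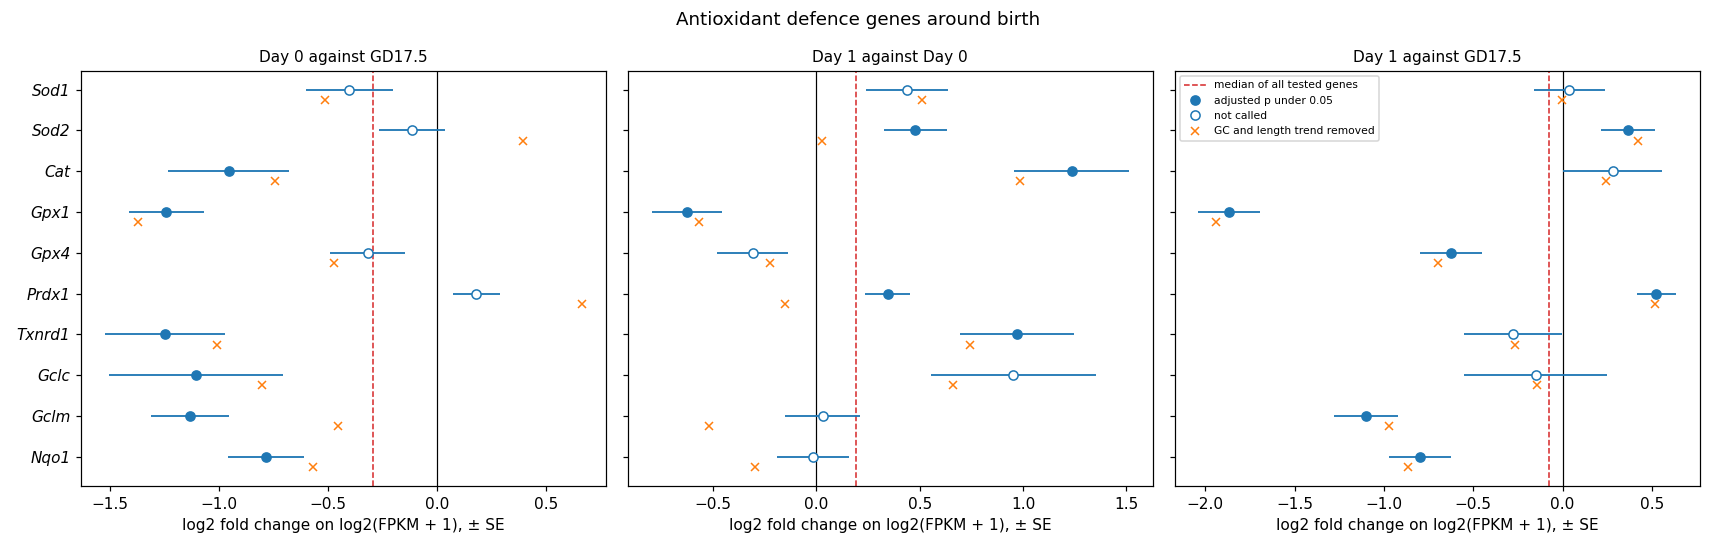
Log2 fold changes on the log2(FPKM + 1) scale with their SE for the 10 genes in the 3 comparisons around birth; filled circles had an adjusted p under 0.05, the dashed line is the median of all tested genes, and crosses give the value after a trend with GC content and transcript length was removed from each library. 6 genes lie left of -0.7 at Day 0 against GD17.5, and Cat and Txnrd1 lie near 1 at Day 1 against Day 0.

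The fall at Day 0 went along with the base composition and length of transcripts. Between GD17.5 and Day 0 the median log2 fold change was -0.59 for the tercile of tested genes with the lowest GC content, -0.26 for the middle and -0.05 for the highest tercile. It was -0.40 for the longest and -0.18 for the shortest tercile. Gclm, of 41.4% GC and 4841 bases, lies at the GC-poor end. So do Prdx1 (42.3% GC) and Sod2 (43.6% GC), whose log2 fold changes of 0.18 and -0.11 were not called. Gpx1, which fell, is short (847 bases, 56.2% GC). With a trend on GC content and length taken out of each library, an alternative chosen after seeing the data, 8 members were lower at Day 0 (33.1% of all tested genes) and 2 were higher (22.9%). The 6 falls remained among them, with log2 fold changes of -1.37 for Gpx1, -1.01 for Txnrd1, -0.80 for Gclc, -0.74 for Cat, -0.57 for Nqo1 and -0.45 for Gclm. Sod1 (-0.51) and Gpx4 (-0.47) joined them, and Prdx1 (0.67) and Sod2 (0.40) were higher. From Day 0 to Day 1 the same alternative kept Cat (0.98) and Txnrd1 (0.74) as higher and Gpx1 (-0.57) as lower, added Sod1 (0.51) and a fall of Gclm (-0.52), and no longer called Sod2 (0.03) or Prdx1 (-0.15).

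Markers of erythroid cells, which mature in the fetal liver, fell over the same days. The summed level of 9 erythroid markers out of 10 chosen (among them Alas2, Slc4a1, Epb4.2, Gata1, Klf1, Rhag, Hemgn and Spna1) was 3175 to 3994 FPKM in fetuses, 1276 to 1791 FPKM at Day 0, 606 to 734 FPKM a day later and 65.7 to 72.0 FPKM in adults of Day 60, and all 9 markers were lower at Day 0. Gpx1, Gpx4, Txnrd1, Gclm and Nqo1 had their highest means at the age where these markers were highest. At Day 3 the erythroid sum was higher again than at Day 1, at 1054 to 1329 FPKM, and so were the means of Gpx1 (1057 FPKM at Day 1, then 1465 FPKM), Gclm (49.3, then 60.6 FPKM), Gpx4 (42.1, then 51.1 FPKM) and Nqo1 (3.13, then 4.22 FPKM), whereas that of Txnrd1 was lower (12.2, then 9.56 FPKM). In bulk liver fewer cells of a type and less RNA per cell cannot be told apart, and the part of erythroid cells in these values was not tested. None of the 9 markers was at 0 in all mice of any age. The 5 proliferation markers Mki67, Top2a, Ccnb1, Cdk1 and Aurkb were likewise all lower at Day 0, with sums of 111.6 to 172 FPKM at GD17.5 and 43.3 to 44.8 FPKM at Day 0. Prdx2, a peroxiredoxin abundant in red cells, had a mean of 1262 FPKM at GD17.5, 589 FPKM at Day 0 and 259.8 FPKM at Day 1.

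**Figure D3:**
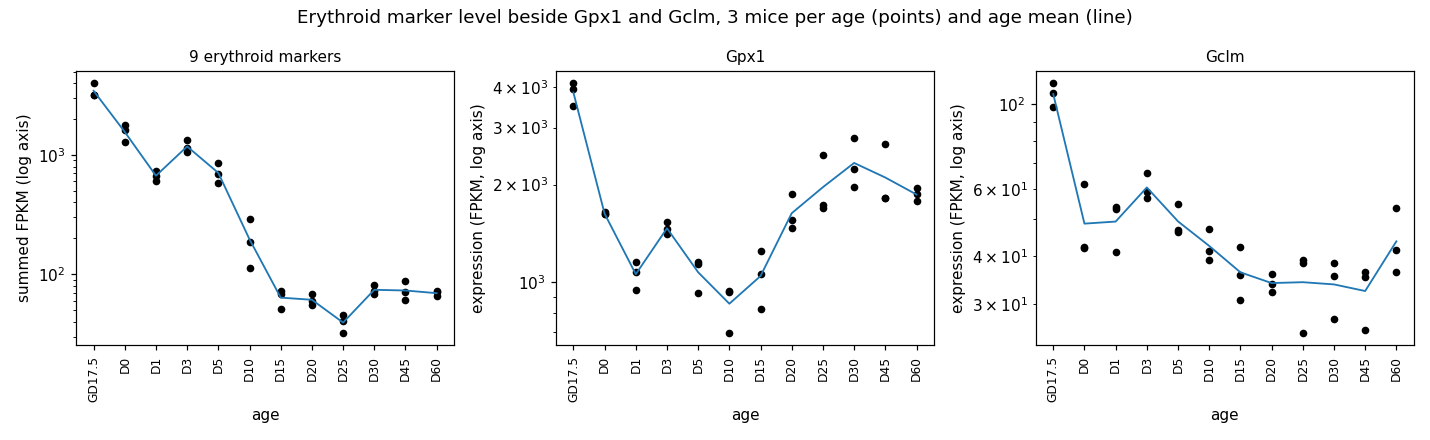
Summed FPKM of 9 erythroid markers, and FPKM of Gpx1 and Gclm, at each age on log axes, with 1 point per mouse and a line through the age means. All 3 start highest at GD17.5 and have a local rise at Day 3, but the erythroid sum ends near 70 FPKM at Day 60 while Gpx1 rises again to 1864 FPKM.

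Among 9 regulators of the antioxidant response, 5 fell and 1 rose from GD17.5 to Day 0, against 41.4% and 13.1% of all tested genes, at a list median of -0.69. Without the 7 mice high in muscle or pancreatic markers 2 were lower. Nfe2l2, encoding Nrf2, fell from 11.9 ± 3.18 to 4.90 ± 1.61 FPKM (mean ± SD, n = 3; log2 fold change -1.15, adjusted p = 0.00105) and returned to its prenatal level at Day 1 (log2 fold change 1.17 from Day 0, adjusted p = 0.0022). Of its small Maf partners, Mafk (-1.08) and Mafg (-0.88) fell, and Maff had a log2 fold change of 0.23. Its restrainers moved unequally, with Cul3 at -1.42, Bach1 at -0.69 and Keap1, which did not pass, at -0.19. Sqstm1, an autophagy receptor that binds Keap1, rose (0.37), and Nfe2l1, the Nrf2 relative, had a value of -0.24. By Day 1, Nfe2l1 (0.48) and Bach1 (0.72) had also risen from Day 0, and Maff (-1.10) and Mafk (-0.46) had fallen. At this step 23.7% of all tested genes rose and 7.88% fell. The 3 rises at Day 1 became 1 with a pseudocount of 0.1, with no filter or with a common upper quartile, and 0 without the 7 mice.

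Of 17 other genes known as Nrf2 targets, 16 were tested, and 7 fell and 2 rose from GD17.5 to Day 0, shares near those of all tested genes (41.4% and 13.1%). The 7 falls became 3 with a common upper quartile and 4 without the 7 mice. The largest falls were of Gstm3 (-1.15), a glutathione transferase, Blvrb (-1.07), which reduces biliverdin, and Hmox1 (-0.84), which breaks down heme. The rises were of Ephx1 (2.19), a microsomal epoxide hydrolase, and Cbr3 (0.34), a carbonyl reductase. From Day 0 to Day 1, 6 of the 16 rose (23.7% of all tested genes, and 2 of the 16 without the 7 mice), led by Ephx1 (1.55), Osgin1 (1.31) and Srxn1 (1.10), the last of which restores overoxidized peroxiredoxins, and Blvrb fell again (-1.08).

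Other genes of the thiol and glutathione systems were called in both directions at birth. From GD17.5 to Day 0, 13.1% of all tested genes rose and 41.4% fell. Of 14 other peroxiredoxins, thioredoxins and glutaredoxins, 4 rose and 4 fell at Day 0: Txnip (1.48), Prdx5 (0.98), Prdx4 (0.94) and Glrx (0.47) rose, whereas Prdx3 (-1.22), Prdx2 (-1.08), Glrx5 (-1.05) and Txnrd2 (-0.79) fell. Txnip binds and inhibits thioredoxin, Prdx3 and Txnrd2 work in mitochondria, and Prdx4 in the endoplasmic reticulum. Of 6 tested genes of glutathione synthesis and turnover, Gsr (-0.86), which reduces oxidized glutathione, and Gss (-0.73), glutathione synthetase, fell along with Gclc and Gclm, while Ggt1 (1.93), Oplah (1.24) and Ggt6 (0.45) rose. Gsr was higher again at Day 1 (1.19 from Day 0, adjusted p = 0.00328). Of 5 further peroxidases and dismutases tested, Sod3 (1.34), the extracellular dismutase, Ccs (1.11), which loads copper into Sod1, and Gpx7 (0.54) rose and Gpx8 (-0.39) fell, the last a call that a common upper quartile, a filter at 5 FPKM, removal of the GC and length trend and leaving out the 7 mice each ended.

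Other genes of the selenoprotein system were also called in both directions. From Day 0 to Day 1, 23.7% of all tested genes rose and 7.88% fell. Among 10 genes of selenium handling and other selenoproteins, 5 fell at Day 0 (41.4% of all tested genes), with the largest values for Sepw1 (-0.94), Sep15 (-0.59) and Secisbp2 (-0.48), which binds the element that directs selenocysteine insertion, and Sepp1 (0.98), the secreted selenium carrier, and Sepx1 (0.98) rose. The 5 falls became 1 with a common upper quartile, 1 without the 7 mice and 3 with the GC and length trend removed. From Day 0 to Day 1, 4 rose (2 without the 7 mice), namely Sephs2 (1.78), which makes selenophosphate, Sepp1 (1.63), Eefsec (0.69) and Pstk (0.44), and none of the 10 was lower, in limma also at an unadjusted p under 0.05.

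Catalase shares the peroxisome with oxidases that produce hydrogen peroxide. Of 9 peroxisomal oxidases, 5 rose from GD17.5 to Day 0 (13.1% of all tested genes), among them Hao1 (2.92), Uox (2.73), Pipox (0.61) and Paox (0.56). None was lower (41.4% of all tested genes), in limma also at an unadjusted p under 0.05. Mean Cat over the same step was 66.1 FPKM in fetuses and 34.3 FPKM in newborns.

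Genes of NADPH supply, which feeds both glutathione and thioredoxin reduction, and of the pentose phosphate pathway were called at both steps. At Day 0, Idh1 (-0.67) and Taldo1 (-0.63) were lower of 7 tested, against 41.4% of all tested genes, and neither was with a common upper quartile or without the 7 mice. From Day 0 to Day 1, Tkt (-0.96), Pgd (-0.88), Taldo1 (-0.79) and G6pdx (-0.70), all of the pentose phosphate pathway, fell (7.88% of all tested genes), while Idh1 rose (0.81), a call lost with a common upper quartile, without the 7 mice and with the GC and length trend removed. Genes known to respond to low oxygen were examined for the change to air. At Day 0, 4 of 13 tested were higher (13.1% of all tested genes), namely Egln3 (1.69), Bnip3 (1.21), Ddit4 (1.14) and Adm (0.50). Lower were 3 (41.4% of all tested genes), Slc2a1 (-2.60), Egln1 (-0.96) and P4ha1 (-0.46). From Day 0 to Day 1, 6 of the 13 fell (10 with the GC and length trend removed), with Ndrg1 (-1.69), Slc2a1 (-1.38) and Ankrd37 (-1.08) lowest, and none was higher, in limma also at an unadjusted p under 0.05. Slc2a1, a glucose transporter that red cells also carry, had 148 ± 11.9 FPKM at GD17.5.

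The next question concerned growth through suckling and weaning. In Days 25 to 60 compared with Days 1 to 20, 6 members were higher and 2 lower, in livers where 11.7% of all tested genes were higher and 68.1% lower (25.8% and 45.3% with a common upper quartile, when 8 members were higher and 0 lower). The member median was 0.36, against -0.39 for all genes. Catalase changed most: the 18 suckling mice had 59.5 to 248.8 FPKM with a median of 98.5, and the 12 weaned mice had 105.7 to 415 FPKM with a median of 253 (log2 fold change 1.16 ± 0.13, adjusted p = 2.14e-09). The groups overlapped, since Cat had already reached 229.5 ± 25.8 FPKM at Day 20.

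Gclc, Gpx1 and Sod1 were higher after weaning as well. Gclc had 7.71 to 44.0 FPKM with a median of 22.9 in suckling mice and 15.4 to 76.0 FPKM with a median of 46.2 in weaned ones (log2 fold change 0.84 ± 0.18, adjusted p = 0.00013). Gpx1 had a median of 1143 FPKM (697 to 1872) before and 1909 FPKM (1689 to 2795) after weaning (log2 fold change 0.82 ± 0.08, adjusted p = 1.26e-10). Sod1 had a median of 156 FPKM before and 239.9 FPKM after weaning (log2 fold change 0.58 ± 0.09, adjusted p = 1.27e-06). Smaller rises were those of Sod2 (0.39) and Gpx4 (0.34).

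Nqo1 and Gclm went the other way. Nqo1 had a median of 3.91 FPKM in suckling mice and 2.21 FPKM in weaned mice (log2 fold change -0.46 ± 0.08, adjusted p = 6.08e-06), and its step down lay between Day 25 (3.75 to 4.82 FPKM) and Day 30 (1.77 to 2.46 FPKM), whose mice did not overlap. With a common upper quartile Nqo1 was no longer called (-0.16, adjusted p = 0.0654 in limma). With the GC and length trend removed it was still called, at a smaller log2 fold change of -0.18. Gclm had medians of 44.4 and 36.4 FPKM (log2 fold change -0.32 ± 0.08, adjusted p = 0.000869), a direction that a common upper quartile turned to 0.085, and a call lost with the GC and length trend removed (-0.042). Mean Gclm and Gclc, the subunits of glutamate-cysteine ligase, were 106.3 and 12.3 FPKM at GD17.5 and 43.8 and 58.4 FPKM at Day 60. Txnrd1 (0.11) and Prdx1 (-0.05) were not called, but both were higher with a common upper quartile (0.49 and 0.37) and with the GC and length trend removed (0.53 and 0.18).

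Prdx1 had its own course. It climbed from 78.0 ± 4.82 FPKM in fetuses to 184 ± 8.84 FPKM by Day 5, where its mice (173.6, 187.7 and 189.8 FPKM) lay above those of every other age, and stood between 121.4 and 152.2 FPKM in all age means from Day 10 on. Gpx4 also turned within the suckling period, from 43.7 ± 9.04 FPKM on Day 5 to 24.1 ± 3.21, 21.1 ± 2.93 and 24.2 ± 2.22 FPKM on Days 10, 15 and 20. At Day 25, after weaning, Gpx4 was at 39.0, 40.1 and 48.1 FPKM, above all Day 20 mice (22.8, 23.1 and 26.7 FPKM).

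This rise of Gpx4 (log2 fold change 0.78 ± 0.17, adjusted p = 0.00318) was the 1 call among the members from Day 20 to Day 25, where 3.94% of all tested genes were higher and 3.26% lower. The largest other values were those of Gclc (0.55 ± 0.40) and Sod1 (0.47 ± 0.20), which did not pass. Of the other Nrf2 targets, 8 of 16 were higher at this step, or 5 without the 7 mice, and 1 was lower. Ugdh (1.53), which makes the sugar for glucuronidation, and the glutathione transferases Gstm3 (1.49) and Gsta2 (1.46) led the rises, and Hmox1 fell (-0.85). Gstm1, Gstm3, Gsta1 and Gsta2 belong to families of similar genes whose reads may have been split among copies. None of the 9 regulators was called at this step at an adjusted p under 0.05 in limma, with Sqstm1 nearest (0.45, adjusted p = 0.0508, unadjusted p = 0.00373), and 1 was called higher under 7 of the alternatives. Of 7 genes of NADPH supply and the pentose phosphate pathway 4 rose: Me1 (2.23), Pgd (1.60), Tkt (1.04) and Taldo1 (0.70).

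**Figure D4:**
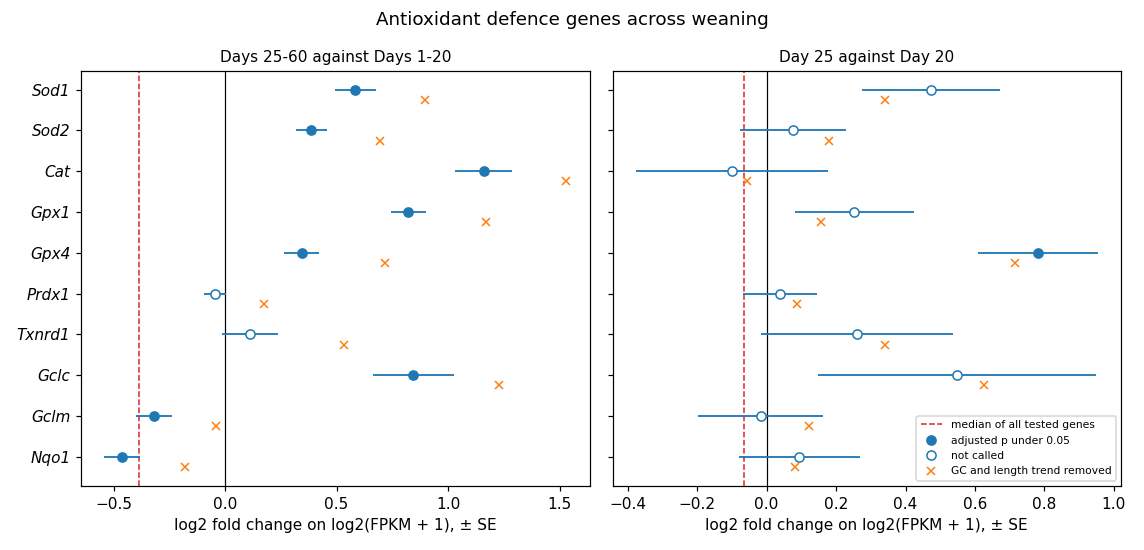
Log2 fold changes on the log2(FPKM + 1) scale with their SE for the 10 genes in Days 25 to 60 against Days 1 to 20 and in Day 25 against Day 20; symbols are filled where the adjusted p was under 0.05, the dashed line is the median of all tested genes, and crosses have the GC and length trend removed. Cat lies highest in the left panel at 1.16, Nqo1 lowest at -0.46, and Gpx4 is the 1 filled symbol in the right panel.

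Across all of Days 25 to 60 against Days 1 to 20, 12 of the 16 other Nrf2 targets were higher and 4 lower. The shares of all tested genes were 11.7% and 68.1%, or 25.8% and 45.3% with a common upper quartile. The targets ranged from Gsta2 (2.71), Gstm3 (2.67) and Gstm1 (2.58) down to Hmox1 (-2.16), Blvrb (-0.49) and Abcc4 (-0.39). Of the regulators 5 of 9 were lower, against 68.1% of all tested genes, Mafk (-0.84), Maff (-0.60), Cul3 (-0.47), Nfe2l2 (-0.35) and Keap1 (-0.29), and Sqstm1 (0.48) higher. The values of Bach1 (-0.26), Nfe2l1 (-0.16) and Mafg (-0.02) did not pass. With the GC and length trend removed, 5 regulators were higher and 2 lower, and with a common upper quartile 3 were higher and 2 lower. Of the peroxisomal oxidases that accompany catalase, 6 of 9 were higher (11.7% of all tested genes), among them Uox (1.21) and Paox (0.91). None of the 9 was lower (68.1% of all tested genes), in limma also at an unadjusted p under 0.05.

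Against the adult level at Day 60, all 10 genes differed in at least one age, as did 90.7% of all tested genes (adjusted jointly over 11 ages). By age, 9 members differed at GD17.5 (72.4% of all genes), 6 at Day 0 (61.2%), 6 at Day 1 (62.0%), 5 at Day 3 (63.1%), 7 at Day 5 (62.8%), 6 at Day 10 (45.0%), 6 at Day 15 (30.0%), 4 at Day 20 (20.6%), 2 at Day 25 (13.2%), 2 at Day 30 (10.9%) and none at Day 45 (3.48%), where 1 member had an unadjusted p under 0.05 in limma. Cat was lower than at Day 60 at 9 ages, Gclc at 8, Sod1 at 7 and Sod2 at 6. Nqo1 was higher at 7 ages and Gclm at 2, GD17.5 and Day 3. In level, Cat stood at 9.47% of its Day 60 mean at Day 0 and Gclc at 9.05%, whereas Gpx1 stood at 87.2% at Day 0 and Nqo1 at 264% at GD17.5. Prdx1 was lower at GD17.5, Day 0 and Day 1 and higher at Day 5. Txnrd1 differed only at Day 0, with a log2 fold change of -0.99. At Day 45 the largest log2 differences from Day 60 were those of Gclc (-0.66) and Gclm (-0.42), and neither passed.

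By the Pearson correlation of age means of log2(FPKM + 1), over 12 ages, Cat was most like Sod2 among the members (r = 0.949) and Hibadh among all other tested genes (r = 0.979). Gclc was likewise nearest to Cat (r = 0.919) and, outside the members, Enpp3 (0.969). Gclm was nearest to Nqo1 (0.656) and Usp32 (0.985), and least like Sod2 (-0.706). The other nearest pairs were Sod1 with Gclc (0.811) and Alkbh7 (0.957), Sod2 with Gas2 (0.971), Gpx1 with Gpx4 (0.606) and Cars2 (0.902), Gpx4 with Gclm (0.642) and Dpp3 (0.959), Prdx1 with Gclc (0.634) and H2-Eb1 (0.973), Txnrd1 with Gclm (0.484) and Pno1 (0.966), and Nqo1 with Frrs1 (0.888). All pairs share the same 36 libraries.

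Mice of one age also differed among themselves, some members in the same direction and others in the opposite one. The SD within ages on the log2 scale was largest for Gclc (0.52), Cat (0.36) and Txnrd1 (0.35) and smallest for Prdx1 (0.11), against a median of 0.22 over all tested genes with a transcript of known length. At Day 25, replicate 2 had 18.4 FPKM of Gclc against 51.1 and 51.8 FPKM in the others, but 2471 FPKM of Gpx1 against 1689 and 1731 FPKM, and 290.0 FPKM of Sod1 against 190.5 and 198.6 FPKM. Replicate 1 of Day 30 and replicate 3 of Day 45 showed the same arrangement, with Gclc at 15.4 and 18.4 FPKM and Gpx1 at 2795 and 2677 FPKM. The low mouse of Day 30 had also the lowest Cat of its age, at 105.7 FPKM against 248 and 266 FPKM.

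Over the 12 ages, the mouse lowest in Gclc was also lowest in Txnrd1 at 10 ages, in Gclm at 9 and in Cat at 8, and was highest in Gpx1 at 9, in Gpx4 at 9 and in Sod1 at 8. Prdx1 was lowest in it at 4 ages and highest at 4, Sod2 at 5 and 3, and Nqo1 at 6 and 2. The same counts were not made over all tested genes. That mouse was also the one in which long transcripts were lowest relative to short ones at 9 ages, and GC-poor relative to GC-rich ones at 10. Gclc, Txnrd1 and Gclm have transcripts of 3423 to 4841 bases and Sod1, Gpx1 and Gpx4 of 646 to 995 bases. Sod2 has one of 3824 bases, Cat of 2613, Prdx1 of 2294 and Nqo1 of 1553. Length alone thus did not order the members, and its part was not tested. With the GC and length trend removed from each library, the SD within ages was 0.39 for Gclc, 0.25 for Txnrd1, 0.15 for Gpx1, 0.17 for Sod1 and 0.12 for Gpx4, where it had been 0.52, 0.35, 0.21, 0.25 and 0.21. The median over all tested genes with a transcript of known length went from 0.22 to 0.17. The SD was higher after removal for Prdx1 (0.11 and 0.22) and Sod2 (0.18 and 0.21).

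**Figure D5:**
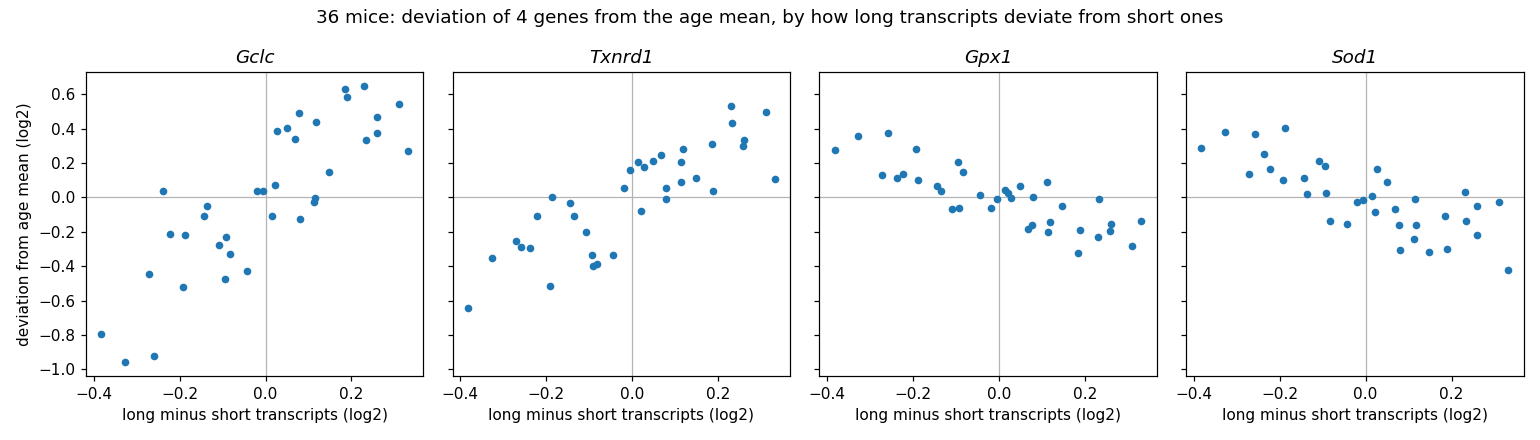
Deviation of Gclc, Txnrd1, Gpx1 and Sod1 from the mean of the mouse's own age (log2), 1 point for each of 36 mice, against the median deviation of the longest tercile of tested genes minus that of the shortest (log2). Gclc and Txnrd1 rise and Gpx1 and Sod1 fall from left to right, and the mice farthest left are replicate 1 of Day 30 and replicate 2 of Day 25.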

How the data were processed

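Liver RNA of 36 mice, 3 at each of 12 ages, was analysed from the table of FPKM values per gene symbol that the authors deposited. Per the authors' methods, polyadenylated RNA (RNA integrity above 7.0) was made into libraries with an Illumina TruSeq RNA kit and read as 100-base paired ends. Reads were aligned with TopHat 1.2.0 to NCBI37/mm9 and quantified with Cufflinks 1.0.3 against Ensembl 65. No scaling between libraries beyond FPKM is stated, and summed FPKM per mouse was 353712 to 450597. The 10 members and all gene lists were chosen with earlier results of these data known.

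Values were tested as log2(FPKM + 1), which understates changes of low genes, with limma 3.58.1 in R 4.3.3: 1 mean per age over all 36 mice, no covariates, variances moderated along mean expression, for the 11149 genes whose mean reached 1 FPKM at one age or more. P-values are two-sided and adjusted by Benjamini-Hochberg over all these genes within a comparison, or over all genes and 11 comparisons together against Day 60. A change was called at an adjusted p under 0.05. Since groups hold 3 mice, p-values rest on the spread shared over ages. The fit was tested on simulated data. The deposited values carry no counts, so depth was estimated from the steps between low values: among 380 low genes 75.8% of values came within 0.1 of whole fragment numbers, giving relative depths of 0.888 to 1.11. No count test was run.

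Named are all members and all 9 regulators. From each other list, up to 3 called rises and 3 called falls are named per comparison, or all calls where 5 or fewer were made, and for each member the most similar gene; some list genes that this rule or the marker lists would name are not reported here. Hepatocyte, erythroid, proliferation, muscle and pancreatic markers were taken from fixed lists. Prdx2, Slc2a1 and Srxn1 were picked for further values after these had been seen, as were the mice described at Days 25, 30 and 45. GC content and length are those of the longest coding GENCODE M1 transcript, known for 97.7% of tested genes, and their trend was a quadratic fit to each library's deviations from the gene means. Alternatives were a pseudocount of 0.1, no filter, a filter at 5 FPKM, scaling by the upper quartile or to a sum of 1000000, the replicate number as a block, no variance trend, adjustment within each comparison with Day 60, and leaving out each mouse. Leaving out 7 mice high in muscle or pancreatic markers and removing the GC and length trend were added after seeing the data. Python 3.11.15, pandas 2.3.3, numpy 2.4.6 and matplotlib 3.10.9 were used for sums and figures.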

Additional observations from a re-analysis of the deposited data

How the results depend on the processing

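Of 50 member fold changes, 26 were called. Over 9 settings other than leaving out a mouse, 410 of 450 values kept their direction and their side of the threshold, and 16 reversed; of 1800 values with a mouse left out, 1752 kept both and 15 reversed. Many of these values could not reverse. Leaving out a mouse of an age outside a comparison changes its error and adjusted p, not its fold change. The filters, the fit with no variance trend and the replicate block also left the fold changes as they were. The calls that reversed were Gclm in Days 25 to 60 against Days 1 to 20 and Prdx1 in Day 1 against Day 0. Adjustment within each comparison concerned the tests against Day 60 alone. Of 810 counts of called genes in the other lists under these 9 settings, 117 moved by over 1.5 times, or to or from 0. The cause of these changes was not tested. Depth limits little, since a member had at least 180.4 estimated fragments in every mouse.

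With a common upper quartile and with the GC and length trend removed, 8 members were higher in Days 25 to 60 against Days 1 to 20, where 6 were otherwise. With a common upper quartile, 1 member was higher at Day 0 against GD17.5 and 0 were lower in Days 25 to 60 against Days 1 to 20. Log2 fold changes that reversed under it were Sod2 at Day 0 against GD17.5 (0.14), Prdx1 (0.37) and Gclm (0.085) in Days 25 to 60 against Days 1 to 20, and Gclm at Day 1 against Day 0 (-0.12) and at Day 25 against Day 20 (0.018). Scaling to a sum of 1000000 reversed Prdx1 in Days 25 to 60 against Days 1 to 20 (0.016), Gclm at Day 25 against Day 20 (0.0031) and Nqo1 at Day 1 against Day 0 (0.073). With the GC and length trend removed, 2 members were higher at Day 0 against GD17.5, 2 were lower at Day 1 against Day 0 and 1 was lower in Days 25 to 60 against Days 1 to 20. This reversed Sod2 at Day 0 against GD17.5 (0.40), Prdx1 (-0.15) and Gclm (-0.52) at Day 1 against Day 0, Sod1 at Day 1 against GD17.5 (-0.0024), Prdx1 in Days 25 to 60 against Days 1 to 20 (0.18) and Gclm at Day 25 against Day 20 (0.12). Without the 7 mice high in muscle or pancreatic markers, 0 members were higher and 0 lower at Day 1 against Day 0, 1 was higher at Day 1 against GD17.5, as with no filter, and Gclm reversed at Day 1 against Day 0 (-0.33) and at Day 25 against Day 20 (0.020).

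Leaving out each mouse in turn gave 1 to 5 members higher at Day 1 against Day 0 and 1 to 2 at Day 1 against GD17.5, and 42 to 55 pairs of member and age that differed from Day 60, where all mice gave 53. Ranges that crossed 0 were those of Sod1 (-0.17 to 0.24) and Gclc (-0.34 to 0.070) at Day 1 against GD17.5, of Gclm (-0.061 to 0.21) and Nqo1 (-0.067 to 0.065) at Day 1 against Day 0, and, at Day 25 against Day 20, of Sod2 (-0.018 to 0.21), Cat (-0.21 to 0.044), Prdx1 (-0.0033 to 0.086), Gclm (-0.12 to 0.18) and Nqo1 (-0.12 to 0.40). None of these 9 was called with all mice.

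The replicate numbers do not pair the mice, which are different animals. Same-numbered mice of different ages nevertheless tended to deviate alike. Their median correlation was 0.126 (-0.680 to 0.829 over 198 pairs), against -0.048 for mice of different numbers, and 19 of 36 mice correlated best with their own number. The source of this shared deviation was not tested. With the replicate block, 5 members were higher at Day 1 against Day 0, where 4 were without it.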
